A study of Mus musculus with 12 samples.

Results

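The genes described here encode the pore-forming and auxiliary subunits of voltage-gated sodium, calcium and potassium channels, of the other potassium channels and of the hyperpolarization-activated cation channels. They were chosen by symbol alone: every gene of the count table whose mouse symbol has the form of a Kcn, Scn, Cacn or Hcn subunit name was taken, with no use of its expression. The rule gave 136 of 55487 genes, of which 17 were pore-forming subunits of the voltage-gated potassium families, 15 inward rectifiers, 14 tandem-pore leak channels, 10 sodium channel alpha subunits, 10 calcium channel alpha1 subunits and 4 Hcn genes. The other genes were Kcnh, Kcnq, calcium- or sodium-activated and modulatory potassium channel subunits, and auxiliary subunits of potassium, calcium and sodium channels.

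RNA was sequenced from embryoid bodies, floating aggregates in which pluripotent cells differentiate, made from mouse epiblast stem cells with a doxycycline-inducible FLAG-Mixl1 transgene. The 4 groups had 3 libraries each. On days 2 and 4 respectively, NoDox_d2 and NoDox_d4 represent cultures without doxycycline, and D1Dox_d2 and D3Dox_d4 cultures to which it was added at 1 µg/mL. All groups carried the transgene, and the labels do not define the digit after the D. No cells without the transgene were given the drug, so effects of doxycycline and of Mixl1, a homeobox factor of the primitive streak, cannot be told apart. Whether the replicates are separate cultures is not stated in the labels, and p-values therefore cover just the variation among the libraries at hand, which may be technical.

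Ion channels let sodium, potassium, calcium or chloride cross the membrane, and their mix sets the resting potential and the firing of a cell. Leak and inwardly rectifying potassium channels hold a cell near rest, whereas voltage-gated sodium and calcium channels depolarize it and voltage-gated potassium channels end the depolarization. Many subunits are used by neurons and heart muscle, and auxiliary subunits change the gating and surface level of the pore subunits.

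Of the 136 genes, 99 had at least 1 RefSeq promoter window, 135 windows in all on GRCm38.p6, each covering 250 bases before and 50 bases after a transcript start. The windows of 4 genes on which the results below turn are printed with CG dinucleotides in capitals: Kcnk13 had the largest rise at day 2, Kcna6 the smallest adjusted p at day 4, and Kcnip2 and Kcnj3 were among the genes that fell at day 2. They lie at chr12:99964249-99964548 (+ strand), chr6:126740625-126740924 (− strand), chr19:45816014-45816313 (− strand) and chr2:55435720-55436019 (+ strand).
Kcnk13: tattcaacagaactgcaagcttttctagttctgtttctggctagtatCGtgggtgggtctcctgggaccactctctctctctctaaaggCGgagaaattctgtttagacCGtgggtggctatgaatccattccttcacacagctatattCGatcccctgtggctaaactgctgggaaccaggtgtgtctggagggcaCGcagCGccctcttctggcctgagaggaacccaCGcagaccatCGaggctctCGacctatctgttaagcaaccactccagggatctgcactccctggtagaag
Kcna6: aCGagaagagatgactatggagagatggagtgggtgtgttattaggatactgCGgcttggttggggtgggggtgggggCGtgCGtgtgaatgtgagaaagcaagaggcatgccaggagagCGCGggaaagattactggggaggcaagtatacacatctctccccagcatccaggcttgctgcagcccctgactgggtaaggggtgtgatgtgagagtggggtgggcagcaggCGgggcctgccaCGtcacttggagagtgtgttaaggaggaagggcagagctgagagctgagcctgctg
Kcnip2: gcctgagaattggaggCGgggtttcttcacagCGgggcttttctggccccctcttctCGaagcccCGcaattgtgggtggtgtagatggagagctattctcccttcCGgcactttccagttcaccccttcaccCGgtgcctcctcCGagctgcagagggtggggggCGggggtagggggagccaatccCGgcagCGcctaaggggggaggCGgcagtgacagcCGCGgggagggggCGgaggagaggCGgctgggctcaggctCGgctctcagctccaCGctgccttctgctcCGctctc
Kcnj3: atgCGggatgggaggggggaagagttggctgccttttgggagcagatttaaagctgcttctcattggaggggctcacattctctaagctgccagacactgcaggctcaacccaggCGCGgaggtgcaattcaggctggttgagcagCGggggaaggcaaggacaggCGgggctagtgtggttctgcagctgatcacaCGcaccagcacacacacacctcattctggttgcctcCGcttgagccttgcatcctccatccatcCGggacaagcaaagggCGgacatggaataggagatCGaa

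The Kcnk13 window held 9 CG dinucleotides, that of Kcna6 8, that of Kcnip2 18 and that of Kcnj3 10. The median was 9 over the channel gene windows and 7 over all 32851 windows. Among other genes that rose, Kcnd2 had 26 CG dinucleotides, Kcnc2 3 to 6 per window, Kcnip4 7 per window and Kcnj12 4. Windows of genes that rose thus lay on both sides of the channel median. The homeodomain palindrome TAATNNNATTA was searched on both strands and was in 0 of 135 channel windows, against 0.487% of all windows. The cAMP response element TGACGTCA was also in 0 of 135, against 1.79% of all windows. Parts of RE1, the element bound by the neuronal gene repressor REST, were each found once. TTCAGCACC was in the window of Kcnh6 (0.371% of all windows held it), and GGACAGCGC was in that of Kcnj4 (0.405% of all windows). These 2 stretches are shown with the match in capitals, the former at chr11:106007952-106007981 (+ strand) and the latter at chr15:79505348-79505377 (− strand).
Kcnh6: cttggcttatTTCAGCACCacgacgcggac
Kcnj4: gagcggcgcgGGACAGCGCggagaccccga
A match describes the letters of a window only. Neither Kcnh6 nor Kcnj4 was called at day 2 or day 4, with adjusted p between 0.189 and 0.852 in edgeR's quasi-likelihood test. Kcnj4 was called lower on both days, at −1.23 (adjusted p = 0.000186) and −0.86 (adjusted p = 0.00256), in a fit without both NoDox libraries numbered 1, which stood apart from the others.

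Libraries held 24100487 to 28020036 counts, at which 3 counts correspond to 0.106 to 0.130 CPM (counts brought to a fixed library size with edgeR's TMM factors). Mixl1 had 362 to 392 CPM in D1Dox_d2, 417 to 477 in D3Dox_d4 and 1.11 to 1.83 in NoDox_d4. In NoDox_d2 it had 90.9 CPM in replicate 1 against 0.592 and 1.15 in replicates 2 and 3. Both NoDox libraries numbered 1 also stood apart in the channel genes. Their correlation with the other replicates over the tested channel genes was 0.820 to 0.875, against 0.973 and 0.981 between replicates 2 and 3. Of 86 channel genes at 1 CPM or more in a NoDox_d2 library, replicate 1 was at least 2-fold below both others for 19 and at least 2-fold above for 17. On day 4 these counts were 29 and 5 of 85. Counts over all channel genes are therefore given with and without both libraries, as are some counts of subfamilies and lists. Epiblast markers such as Pou5f1 and Sox2 were present in every library, with a summed level of 554 to 1661 CPM over 8 genes.

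Most channel genes were expressed at a low level in these embryoid bodies. Over all libraries, 37 of 136 had a mean of at least 1 RPKM (CPM per kilobase of counted exon), and 2 had no count. In D3Dox_d4 47 genes reached 1 RPKM, against 33 in NoDox_d2, 34 in D1Dox_d2 and 33 in NoDox_d4. Per length, the highest levels belonged to auxiliary subunits of calcium channels. Cacng7, a gamma subunit that also traffics glutamate receptors, had a mean of 35.5 RPKM. Cacnb3, a cytoplasmic beta subunit, had 25.3 RPKM.

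The pore-forming subunits were lower. Kcnh2, which carries the rapid delayed rectifier current of the heart, had a mean of 8.80 RPKM. Kcnj3, a subunit of the G-protein-gated inward rectifier, had 5.41 RPKM, and Cacna1h, a low-voltage-activated calcium channel, 5.17 RPKM. Among the voltage-gated potassium families Kcna6 led with 4.21 RPKM, and among the sodium channels Scn8a led with 2.84 RPKM. Among the leaders of other subfamilies were Cacna2d2 (4.70 RPKM), Kcnip3 (3.59 RPKM), Kcnk1 (3.23 RPKM), Kcnn1 (1.90 RPKM), Hcn4 (1.88 RPKM) and Kcng1 (1.68 RPKM). Summed over all 136 genes, the channel level was 731 to 954 CPM in NoDox_d2, 882 to 960 in D1Dox_d2, 595 to 1008 in NoDox_d4 and 1297 to 1617 in D3Dox_d4. On day 4 the groups did not overlap, and on day 2 they did.

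**Figure D1:**
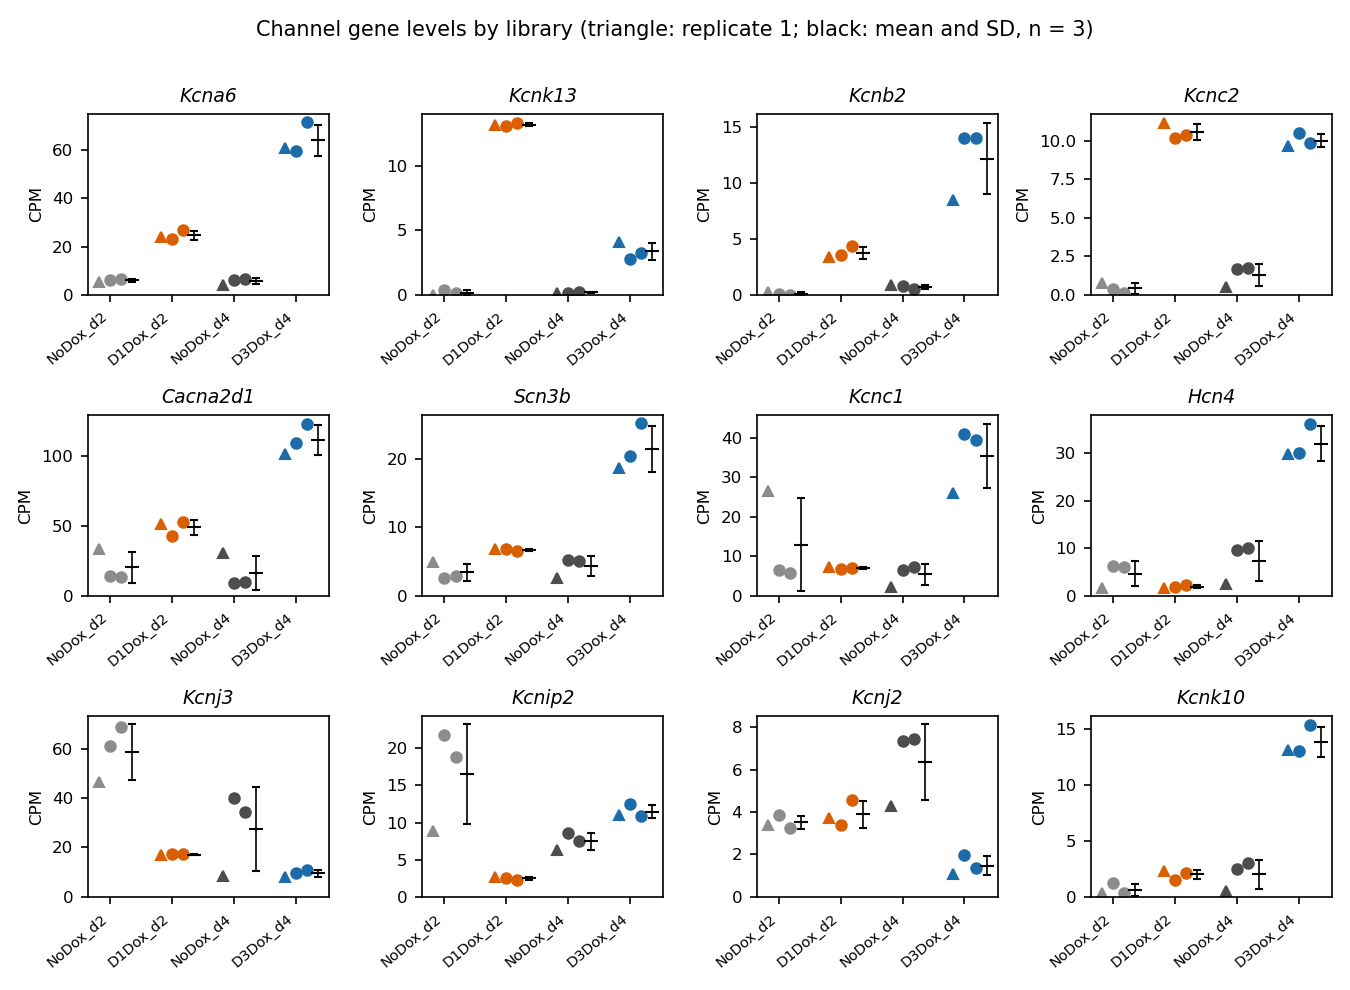
Level of 12 channel genes in each of the 12 libraries, in CPM on a linear axis from 0, with replicate 1 as a triangle, replicates 2 and 3 as circles, and the mean and SD of each group (n = 3) in black. Kcna6 sits at 59.8 to 71.6 CPM in D3Dox_d4 and at 4.06 to 6.37 CPM in NoDox_d4, and the NoDox triangles lie apart from the circles for Cacna2d1, Kcnc1 and Hcn4.

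At day 2 the comparison of D1Dox_d2 with NoDox_d2 asked how channel genes stood in embryoid bodies given doxycycline. The leak channel gene Kcnk13 and the voltage-gated potassium channel genes Kcnd2, Kcnb2, Kcna4 and Kcnc2 rose from near 0 by more than 4 log2 units. Kcnip2 and Kcna2 fell by more than 2 log2 units. Of 114 tested channel genes 27 rose and 17 fell, 38.6% in all, where 28.4% of all 18109 tested genes were called. By direction, 14.9% of all tested genes rose and 13.4% fell. The median log2 fold change was 0.15 over the tested channel genes and −0.03 over all tested genes. The tested genes are not the whole set, since a gene silent in NoDox could enter only through its level with doxycycline. The libraries of the 2 groups did not overlap for 61 channel genes (53.5% of those tested), against 46.0% of all tested genes. With both NoDox libraries numbered 1 left out, 43 rose and 34 fell, against 53.4% of all tested genes called (26.8% higher and 26.7% lower).

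The pore-forming voltage-gated potassium subunits, which repolarize excitable cells, gave 7 of the rises and 2 of the falls among 16 tested. Kcnc2, a fast delayed rectifier of fast-spiking neurons, had 0.776, 0.355 and 0.0743 CPM in NoDox_d2 and 11.2, 10.2 and 10.4 CPM in D1Dox_d2. Every D1Dox_d2 library was thus far above every NoDox_d2 library, and the log2 fold change was 4.69 ± 0.58 (SE, adjusted p = 0.000159). Without both NoDox libraries numbered 1 it was 5.62. Kcnb2, a slow delayed rectifier, had 0.212, 0.0395 and 0 CPM in NoDox_d2 against 3.33, 3.58 and 4.33 CPM in D1Dox_d2. Its libraries did not overlap either, with a log2 fold change of 5.36 ± 0.58 (adjusted p = 6.72e-05), and 7.28 without those libraries.

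Kcnd2 and Kcna4 both encode subunits of the rapidly inactivating A-type current. Kcnd2 had 2 counts over the NoDox_d2 libraries and 93 over the D1Dox_d2 libraries, a ratio of 50.6 with a 95% counting interval of 13.6 to 424. Kcna4 had 2 counts against 87, a ratio of 47.3 (12.7 to 397). In D1Dox_d2 their levels were 1.44, 0.650 and 1.69 CPM for Kcnd2 and 1.63, 1.10 and 0.736 CPM for Kcna4, so both stayed weakly expressed after the rise. Kcna6, a delayed rectifier of the Shaker-related family, had the highest level per length of this family. On the opposite strand 39.6% of its exon bases overlap Gm26673, which had at most 0.0144 CPM in a group mean. Kcna6 had 5.26, 6.08 and 6.32 CPM in NoDox_d2 and 24.1, 23.2 and 26.8 CPM in D1Dox_d2. The spread within each group was small beside this difference, and the log2 fold change was 2.07 ± 0.17 (adjusted p = 8.2e-06). The other genes of this family that rose were Kcna1 (1.39 ± 0.40, adjusted p = 0.0228) and Kcnd3 (1.03 ± 0.23, adjusted p = 0.00706). For Kcna1 the adjusted p was 0.0648 to 0.0894 when D1Dox_d2 replicate 2 or 3 or NoDox_d2 replicate 3 was left out.

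Among the falls in this family was Kcna2, a low-threshold delayed rectifier of axons. It had 6.24, 5.88 and 7.91 CPM in NoDox_d2 and 1.02, 1.30 and 1.26 CPM in D1Dox_d2. The fall was of similar size from each NoDox_d2 library, at a log2 fold change of −2.48 ± 0.33 (adjusted p = 0.000279).

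Among the leak channels, 3 of 10 tested genes rose and none was called lower. The counts were 4 and 2 without both NoDox libraries numbered 1, the genes called lower being Kcnk3 at −1.07 (adjusted p = 0.00545) and Kcnk1 at −0.38 (adjusted p = 0.0345). Kcnk13, whose product gives a background potassium current, had 0, 0.355 and 0.111 CPM in NoDox_d2 and 13.1, 13.1 and 13.3 CPM in D1Dox_d2. The D1Dox_d2 libraries were nearly equal, and the log2 fold change was 6.40 ± 0.58 (adjusted p = 1.91e-05), the largest of the tested channel genes at this day with all libraries in the fit, and 5.81 without both NoDox libraries numbered 1. Kcnk2, a mechanically gated leak channel, went from 2.54, 0.395 and 0.632 CPM to 5.98, 7.23 and 6.62 CPM (log2 fold change 2.46 ± 0.51, adjusted p = 0.00463). Its NoDox_d2 replicate 1 was more than 4 times as high as the other 2, and without both NoDox libraries numbered 1 the log2 fold change was 3.67. Kcnk6 was the third, at 1.42 ± 0.39 (adjusted p = 0.0184). Leaving out D1Dox_d2 replicate 1 or 2 or NoDox_d2 replicate 2 or 3 ended this call, at adjusted p of 0.0547 to 0.0758.

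Inward rectifiers split. Kcnj12, a strong rectifier of muscle and brain, had 0.847, 3.44 and 3.38 CPM in NoDox_d2 and 16.2, 19.2 and 15.3 CPM in D1Dox_d2. NoDox_d2 replicate 1 was the lowest library, and the log2 fold change was 2.73 ± 0.46 (adjusted p = 0.00145). Kcnj3 went the other way, from 46.5, 61.0 and 68.7 CPM to 17, 17.2 and 17.1 CPM (−1.78 ± 0.42, adjusted p = 0.00895). The remaining 9 of 11 tested inward rectifiers were not called. In the fit without both NoDox libraries numbered 1 the counts were 3 higher and 5 lower. Kcnj5 and Kcnj15 were then called higher, and Kcnj4, Kcnj9, Kcnj10 and Kcnj11 lower. Hcn4, the main pacemaker channel of the sinus node, had 1.62, 6.28 and 6.02 CPM in NoDox_d2 and 1.70, 1.75 and 2.25 CPM in D1Dox_d2. The groups overlapped through NoDox_d2 replicate 1, and the log2 fold change of −1.28 ± 0.54 was not called (adjusted p = 0.0970). Hcn4 was called lower, at −1.70, without both NoDox libraries numbered 1.

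Calcium channel alpha1 subunits, which form the calcium pore, gave 3 rises among 9 tested and no fall, or 5 rises and 1 fall, that of Cacna1g (−0.47, adjusted p = 0.0236), without both NoDox libraries numbered 1. Cacna1e, a high-voltage-activated channel of neurons and endocrine cells, had 2.40, 2.25 and 2.30 CPM in NoDox_d2 and 8.93, 10.4 and 12.5 CPM in D1Dox_d2. The NoDox_d2 libraries were nearly equal, and the log2 fold change was 2.19 ± 0.39 (adjusted p = 0.00194). Cacna1d and Cacna1a also rose, by 1.99 ± 0.54 (adjusted p = 0.0177) and 1.30 ± 0.17 (adjusted p = 0.000205). The Cacna1d change was 2.80 without both NoDox libraries numbered 1. The Cacna1d call was lost, at adjusted p of 0.0574 to 0.0691, without D1Dox_d2 replicate 3 or NoDox_d2 replicate 2 or 3. Of the alpha2delta subunits, which raise the surface level of calcium channels, Cacna2d3 rose from 0.317, 0.671 and 0.632 CPM to 2.38, 2.24 and 2.68 CPM (2.17 ± 0.30, adjusted p = 0.000401). Cacna2d2 rose by 0.80 ± 0.23 (adjusted p = 0.0230), a call lost at adjusted p of 0.0527 to 0.0781 without D1Dox_d2 replicate 2 or 3 or NoDox_d2 replicate 2.

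The falls among calcium channel genes were in the other auxiliary subunits. Cacnb2, the main beta subunit of the heart, went from 7.65, 12.8 and 13 CPM to 2.73, 3.21 and 3.33 CPM (−1.85 ± 0.33, adjusted p = 0.00182). Cacng7 went from 81.1, 122 and 112 CPM to 52.8, 52.5 and 58.6 CPM (−0.94 ± 0.17, adjusted p = 0.00192). Neither pair of groups overlapped, although NoDox_d2 replicate 1 was the lowest of its group for both. Cacng6, a gamma subunit of muscle, went from 1.48, 2.01 and 3.49 CPM to 0.454, 0.325 and 0.649 CPM (−2.28 ± 0.39, adjusted p = 0.00145).

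Sodium channel alpha subunits, which start action potentials, gave 1 rise and 2 falls among 8 tested. Scn4a, the skeletal muscle channel, rose by 1.32 ± 0.42 (adjusted p = 0.0359). Scn1a and Scn3a fell by 0.80 ± 0.27 (adjusted p = 0.0460) and 0.90 ± 0.31 (adjusted p = 0.0470). These 3 calls were near the threshold, and each was lost without 7 or 8 of the 12 libraries in turn, at adjusted p of 0.0522 to 0.165. For Scn4a these were the D1Dox_d2 libraries, D3Dox_d4 replicates 2 and 3 and NoDox_d2 replicates 2 and 3. For Scn1a and Scn3a they were D1Dox_d2 replicates 2 and 3, NoDox_d2 replicates 1 and 2, NoDox_d4 replicates 2 and 3 and D3Dox_d4 replicate 3, with D1Dox_d2 replicate 1 for Scn1a and D3Dox_d4 replicate 2 for Scn3a. Of the beta subunits, which anchor and tune the alpha subunits, Scn3b rose by 0.95 ± 0.29 (adjusted p = 0.0314). Its call was lost without any 1 D1Dox_d2 library or NoDox_d2 replicate 2 or 3 (0.0727 to 0.114). With the replicate number as a block the calls of Scn1a, Scn3a and Scn3b were lost, at adjusted p of 0.0508, 0.0692 and 0.050004. With only the compared libraries in the fit those of Scn1a and Scn3a were lost, at 0.0577 and 0.0835.

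Auxiliary potassium channel subunits moved in both directions, with 4 rises and 2 falls among 11 tested. Kcnip2, a calcium-binding partner of the Kcnd channels, had 8.92, 21.8 and 18.9 CPM in NoDox_d2 and 2.61, 2.52 and 2.29 CPM in D1Dox_d2. Its level fell by 2.73 ± 0.29 on the log2 scale (adjusted p = 6.35e-05), and this held although NoDox_d2 replicate 1 was at less than 0.5 of the others. Its relative Kcnip4 had 1.31, 1.11 and 1.15 CPM in NoDox_d2 and 2.23, 2.44 and 2.90 CPM in D1Dox_d2 (1.08 ± 0.22, adjusted p = 0.00428). Kcnab1, a beta subunit that speeds inactivation of Kcna channels, rose by 2.72 ± 0.53 (adjusted p = 0.00325; 3.40 without both NoDox libraries numbered 1), while its relative Kcnab3 fell by 1.54 ± 0.24 (adjusted p = 0.000808). The single-pass subunit genes Kcne4 and Kcne3 rose too. Kcne4 went from 0.388, 0.237 and 0.334 CPM to 1.82, 1.38 and 2.64 CPM (2.58 ± 0.55, adjusted p = 0.00526). Kcne3 had 1 count over NoDox_d2 and 50 over D1Dox_d2, a ratio of 54.4 (9.32 to 2189).

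Kcnq channels give the slow M-type and related currents. Kcnq5 rose by 2.16 ± 0.49 (adjusted p = 0.00747), and Kcnq1 fell by 2.45 ± 0.53 (adjusted p = 0.00565) from a mean of 0.543 CPM.

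Further falls were Kcnt2 and Kcnn3, channels opened by intracellular sodium and calcium respectively, Kcnh7, an Erg-type channel, and Kcns2 and Kcng1, modulatory subunits that form no channel alone. Kcnt2 went from 5.71, 18.2 and 16.2 CPM to 3.71, 3.90 and 4.67 CPM (−1.71 ± 0.54, adjusted p = 0.0348). Without any 1 D1Dox_d2 library or without NoDox_d2 replicate 2 or 3 its adjusted p was 0.0820 to 0.116. With both NoDox libraries numbered 1 left out, the Kcnt2 call was kept, at −2.07 (adjusted p = 3.79e-08). That fit leaves out the NoDox_d2 library closest to D1Dox_d2. Kcns2 fell by 1.87 ± 0.54 (adjusted p = 0.0236) and Kcnh7 by 1.17 ± 0.31 (adjusted p = 0.0154). Both calls were lost without D1Dox_d2 replicate 1 or 2, and that of Kcns2 without NoDox_d2 replicate 3, at adjusted p of 0.0537 to 0.0922. Kcnn3 fell by 1.72 ± 0.46 (adjusted p = 0.0176) and was the only gene called at this day whose groups overlapped. Leaving out the same libraries as for Kcnk6 ended this call (0.0579 to 0.0755). Without both NoDox libraries numbered 1 the Kcnn3 call was kept, at −2.13 (adjusted p = 1.09e-07). Those libraries were left out because they stood apart, so this fit is no independent check of Kcnt2 or Kcnn3. Kcng1 fell by 0.93 ± 0.24 (adjusted p = 0.0156), a call lost without D1Dox_d2 replicate 1 or NoDox_d2 replicate 2 (0.0632 and 0.0715). Kcns3, another modulatory subunit, and Kcnh3 rose by 1.32 ± 0.35 and 1.59 ± 0.42 (adjusted p = 0.0156 and 0.0154). Their calls were lost without NoDox_d2 replicate 3, and that of Kcns3 also without NoDox_d2 replicate 2 or D1Dox_d2 replicate 1 (0.0560 to 0.0657).

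**Figure D2:**
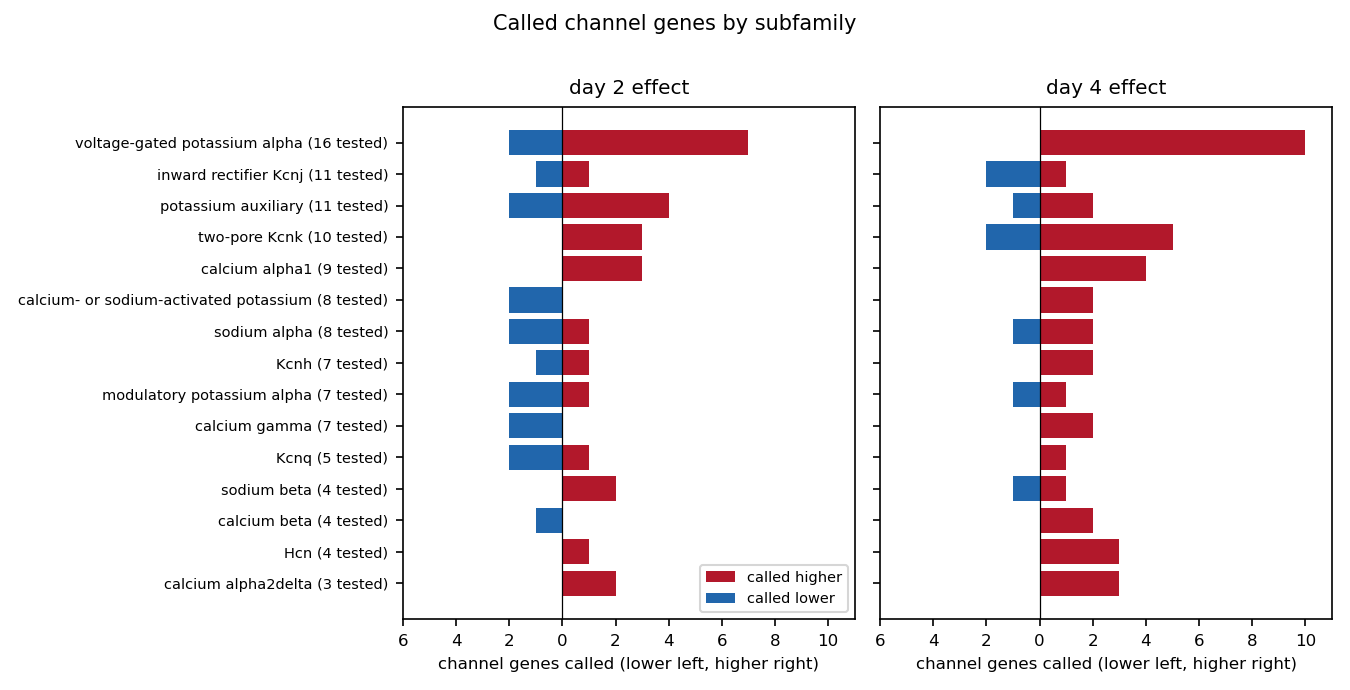
Number of channel genes called higher (red, to the right) and lower (blue, to the left) in each subfamily for D1Dox_d2 against NoDox_d2 and for D3Dox_d4 against NoDox_d4, with all libraries in the fit and the number tested in parentheses. The voltage-gated potassium alpha subunits have 7 called higher and 2 lower of 16 at day 2, and 10 higher and 0 lower at day 4.

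Markers of other cell types moved with these values at day 2. Of 8 fibroblast and smooth muscle markers 6 rose, and their summed level was 259 to 317 CPM in NoDox_d2 and 1405 to 1714 CPM in D1Dox_d2. Of 12 neuron markers 3 rose, with sums of 297 to 420 CPM and 460 to 560 CPM. Among 6 autonomic neuron markers 3 rose, from sums of 13.9 to 62.6 CPM to sums of 196 to 220 CPM. Of 7 tested cardiac and striated muscle markers 2 rose and 3 fell, with sums of 21.0 to 28.6 CPM and 19.7 to 27.9 CPM. Of 3 tested endothelial and blood markers 2 rose, from sums of 2.38 to 6.95 CPM to sums of 25.4 to 30.3 CPM. Of 3 tested glial markers 1 rose and 1 fell, and of 8 epiblast markers 3 fell. With both NoDox libraries numbered 1 left out the neuron list gave 5 rises and 3 falls, the autonomic list 4 and 1, and the epiblast list 1 and 5. No marker of these lists was without a count in all libraries. In bulk RNA, fewer cells of a type and less RNA per cell cannot be told apart. The part of these cell types in the channel values was not tested.

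At day 4 the comparison of D3Dox_d4 with NoDox_d4 asked the same question of the later group. Rises prevailed: 41 of 114 tested channel genes rose and 8 fell, 43.0% in all, where 23.5% of all tested genes were called. By direction 13.4% of all tested genes rose and 10.2% fell. The median log2 fold change was 0.68 over the tested channel genes and −0.03 over all tested genes. The libraries did not overlap for 62 channel genes (54.4% of those tested), against 40.6% of all tested genes. Leaving out both NoDox libraries numbered 1 gave 51 rises and 16 falls, against 39.4% of all tested genes (21.1% higher and 18.3% lower).

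The voltage-gated potassium subunits gave 10 of these rises among 16 tested, and none fell. Kcna2 was called lower (−0.66, adjusted p = 0.0406) without both NoDox libraries numbered 1, beside 10 rises. Kcna6 had 4.06, 6.01 and 6.37 CPM in NoDox_d4 and 60.9, 59.8 and 71.6 CPM in D3Dox_d4. The lowest D3Dox_d4 library was 9 times as high as the highest NoDox_d4 library, and the log2 fold change was 3.55 ± 0.18 (adjusted p = 2.26e-07). Per length its mean went from 0.922 to 10.8 RPKM, the highest level of this family in D3Dox_d4. Kcnb2 had 0.827, 0.772 and 0.499 CPM in NoDox_d4 and 8.49, 14 and 14 CPM in D3Dox_d4 (4.12 ± 0.46, adjusted p = 9.79e-05). Kcnc2 had 0.473, 1.67 and 1.73 CPM against 9.68, 10.5 and 9.82 CPM (2.95 ± 0.51, adjusted p = 0.00172). For these genes too no NoDox_d4 library reached a D3Dox_d4 library.

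Kcnc1, a fast delayed rectifier related to Kcnc2, had 2.32, 6.58 and 7.26 CPM in NoDox_d4 and 26.0, 40.8 and 39.3 CPM in D3Dox_d4. Replicate 1 was the lowest in both groups, and the log2 fold change was 2.71 ± 0.56 (adjusted p = 0.00502). Kcnd2 had 0.197, 0.0406 and 0.0768 CPM against 1.84, 2.17 and 2.58 CPM (4.33 ± 0.62, adjusted p = 0.000543). Others of the family that rose were Kcna1, Kcna4, Kcna5 and Kcnd3, by 1.71 to 2.84 log2 units. The Kcna4 call was lost without D3Dox_d4 replicate 2 (adjusted p = 0.0789). Without both NoDox libraries numbered 1 the changes were 3.62 for Kcna4 and 5.10 for Kcnd2.

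Calcium channel genes rose in each kind of subunit and none was called lower with all libraries in the fit. Cacna1g and Cacnb2 were called lower, at −0.81 (adjusted p = 0.000795) and −1.19 (adjusted p = 3.12e-05), without both NoDox libraries numbered 1. All 3 tested alpha2delta genes rose. Cacna2d1, the subunit bound by gabapentin, had 30.6, 9.38 and 9.52 CPM in NoDox_d4 and 102, 109 and 123 CPM in D3Dox_d4. NoDox_d4 replicate 1 was 3 times as high as the others. The change was 2.76 ± 0.46 on the log2 scale (adjusted p = 0.00138), and 3.56 when both NoDox libraries numbered 1 were left out. Cacna2d2 went from 15.6, 24.4 and 23.9 CPM to 53.0, 77.4 and 82.6 CPM (1.74 ± 0.23, adjusted p = 0.000336). Cacna2d3 rose by 1.22 ± 0.27 (adjusted p = 0.00769).

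The alpha1 genes that rose were Cacna1a, Cacna1b, Cacna1e and Cacna1h, 4 of 9 tested. Cacna1h had 18, 32.2 and 38.2 CPM in NoDox_d4 and 62.9, 106 and 111 CPM in D3Dox_d4, with replicate 1 lowest in both groups (1.66 ± 0.28, adjusted p = 0.00145). Cacna1b, the N-type channel of nerve terminals, rose by 1.60 ± 0.30 (adjusted p = 0.00253) and Cacna1e by 2.46 ± 0.40 (adjusted p = 0.00106). Among the gamma subunits Cacng3, which traffics glutamate receptors, had 0.118, 0.122 and 0.154 CPM against 1.30, 1.66 and 1.67 CPM (3.51 ± 0.75, adjusted p = 0.00611). Its relative Cacng2, stargazin, rose by 2.57 ± 0.54 (adjusted p = 0.00544). Of the beta subunits Cacnb1 rose by 0.96 ± 0.17 (adjusted p = 0.00191) and Cacnb3 by 0.67 ± 0.18 (adjusted p = 0.0210). The Cacnb3 fold change was 0.43 without NoDox_d4 replicate 1, and its call was lost without D3Dox_d4 replicate 3 (adjusted p = 0.0680).

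Of the Hcn genes, Hcn4 had 2.36, 9.55 and 10 CPM in NoDox_d4 and 29.9, 30.0 and 36.3 CPM in D3Dox_d4. NoDox_d4 replicate 1 was about 4 times lower than the others, and the groups did not overlap (2.13 ± 0.52, adjusted p = 0.0114). Hcn3 rose by 1.14 ± 0.27 (adjusted p = 0.0112), with 17.1% of its exon bases overlapping Pklr on the opposite strand, which had at most 0.199 CPM in a group mean.

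Of the leak channels 5 rose and 2 fell among 10 tested. Kcnk10, a mechanically and lipid-gated relative of Kcnk2, had 0.552, 2.52 and 2.99 CPM in NoDox_d4 and 13.1, 13 and 15.4 CPM in D3Dox_d4 (2.77 ± 0.55, adjusted p = 0.00396). Kcnk13 had 0.158, 0.122 and 0.230 CPM against 4.08, 2.73 and 3.26 CPM (4.26 ± 0.57, adjusted p = 0.000312). In neither gene did the groups overlap. Kcnk2, Kcnk3 and Kcnk12 rose by 2.39 ± 0.51, 1.91 ± 0.37 and 2.59 ± 0.57. Kcnk1, a weak inward rectifier of epithelia and brain, fell by 0.68 ± 0.20 (adjusted p = 0.0306) and Kcnk5, an alkaline-activated channel, by 0.67 ± 0.17 (adjusted p = 0.0132). The Kcnk1 call was lost without any 1 D3Dox_d4 library (adjusted p of 0.0569 to 0.102) or NoDox_d4 replicate 2 or 3, and that of Kcnk5 without NoDox_d4 replicate 3 (0.0560).

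Among the inward rectifiers Kcnj2, which sets the resting potential of heart and skeletal muscle, had 4.29, 7.35 and 7.45 CPM in NoDox_d4 and 1.08, 1.99 and 1.35 CPM in D3Dox_d4, without overlap (−2.11 ± 0.29, adjusted p = 0.000421). Its relative Kcnj12 rose from 5.12, 2.11 and 2.03 CPM to 17.5, 21.3 and 19.0 CPM (2.64 ± 0.46, adjusted p = 0.00177). Kcnj3 had 8.23, 40.1 and 34.3 CPM in NoDox_d4 and 8.13, 9.69 and 10.7 CPM in D3Dox_d4 (−1.54 ± 0.42, adjusted p = 0.0206). NoDox_d4 replicate 1 lay within the D3Dox_d4 range, so the groups overlapped. The Kcnj3 call was lost without any 1 D3Dox_d4 library or NoDox_d4 replicate 2 or 3 (adjusted p of 0.0534 to 0.0779). The call was also lost with only the compared libraries in the fit. Without both NoDox libraries numbered 1 it was kept, at −1.97 (adjusted p = 1.05e-08). That fit leaves out the library through which the groups overlapped, so it is no independent check.

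Among sodium channels Scn3a, an alpha subunit of embryonic brain, had 4.69, 7.47 and 6.76 CPM in NoDox_d4 and 11.2, 16 and 17.7 CPM in D3Dox_d4 (1.25 ± 0.30, adjusted p = 0.0113). Scn3b had 2.60, 5.28 and 5.07 CPM against 18.7, 20.5 and 25.3 CPM (2.32 ± 0.30, adjusted p = 0.000236). In both genes all D3Dox_d4 libraries were above all NoDox_d4 libraries. Scn4a rose by 1.60 ± 0.46 (adjusted p = 0.0266) and by 2.29 without both NoDox libraries numbered 1, and its call was lost without any 1 D3Dox_d4 library or NoDox_d4 replicate 2 or 3 (0.0507 to 0.0910). Scn7a, an atypical sodium-sensing channel, fell by 1.97 ± 0.44 (adjusted p = 0.00770). The beta subunit gene Scn4b was called lower at −4.03 ± 1.27 (adjusted p = 0.0389), but this rested on NoDox_d4 replicate 1. Its levels there were 9.97, 0.325 and 0.845 CPM, against 0.361, 0.184 and 0.119 CPM in D3Dox_d4. Without that library the change was −1.37 (adjusted p = 0.352), and the call was also lost without any 1 of the 6 doxycycline libraries (0.0533 to 0.128).

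The auxiliary subunit Kcnip4, which binds Kcnd channels, had 1.22, 0.853 and 1.31 CPM in NoDox_d4 and 8.16, 8.18 and 8.43 CPM in D3Dox_d4 (2.87 ± 0.23, adjusted p = 7.37e-06). The D3Dox_d4 libraries were nearly equal. Kcnip3, its nuclear relative, rose by 0.61 ± 0.15 (adjusted p = 0.0120), and Kcne3 fell from 22 counts over the group to 3, a 7.71-fold difference (2.32 to 40.3). The Kcne3 call (adjusted p = 0.0489) was lost without any 1 of 9 libraries, namely every one but NoDox_d2 replicate 1, NoDox_d4 replicate 2 and D3Dox_d4 replicate 1 (0.0574 to 0.144). Kcng4, a modulatory subunit, rose from 2 counts to 76, a ratio of 36.1 (9.66 to 304). Kcng1 fell from 11.2, 12.3 and 16 CPM to 6.14, 7.88 and 7.63 CPM (−0.87 ± 0.24, adjusted p = 0.0211), a call lost without D3Dox_d4 replicate 1 or 3 or NoDox_d4 replicate 3 (0.0554 to 0.0833). Other rises were Kcnh3, Kcnh4, Kcnn1 and Kcnu1, by 1.04 to 2.70 log2 units. Those of Kcnh3, Kcnn1 and Kcnu1 were lost without D3Dox_d4 replicate 3 or NoDox_d4 replicate 3 (adjusted p of 0.0536 to 0.132). The Kcnn1 call was also lost without any other doxycycline or NoDox_d4 library, and that of Kcnh3 without any D1Dox_d2 library, D3Dox_d4 replicate 2, NoDox_d2 replicate 2 or NoDox_d4 replicate 2 (0.0506 to 0.113). The Kcnu1 change was 3.48 without both NoDox libraries numbered 1.

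Markers of neurons moved with these values. Of 12 neuron markers 11 rose at day 4, and their summed level was 209, 648 and 577 CPM in NoDox_d4 and 1826 to 2034 CPM in D3Dox_d4. Of 6 autonomic neuron markers 3 rose, from sums of 16.8 to 120 CPM to sums of 451 to 509 CPM. No marker of either list was without a count in all libraries. The cardiac and striated muscle markers had sums of 14.3 to 16.5 CPM in NoDox_d4 and 8.99 to 11.3 CPM in D3Dox_d4, and the glial markers 49.9 to 77.5 CPM and 53.1 to 55.2 CPM. The fibroblast and smooth muscle list gave 1 rise and 3 falls, with sums of 97.0 to 258 CPM and 384 to 460 CPM. Of 3 tested endothelial and blood markers 1 rose and 1 fell, and of 8 epiblast markers 4 fell. When both NoDox libraries numbered 1 were left out, the autonomic list gave 5 rises and 1 fall and the epiblast list 1 and 6. The cardiac and striated muscle list and the glial list each gave 1 and 2, against 0 and 0 with all libraries. The fibroblast and smooth muscle list then gave 4 rises and 2 falls, against 1 and 3, and the endothelial and blood list 2 and 1. The part of these cell types in the channel values was not tested.

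**Figure D3:**
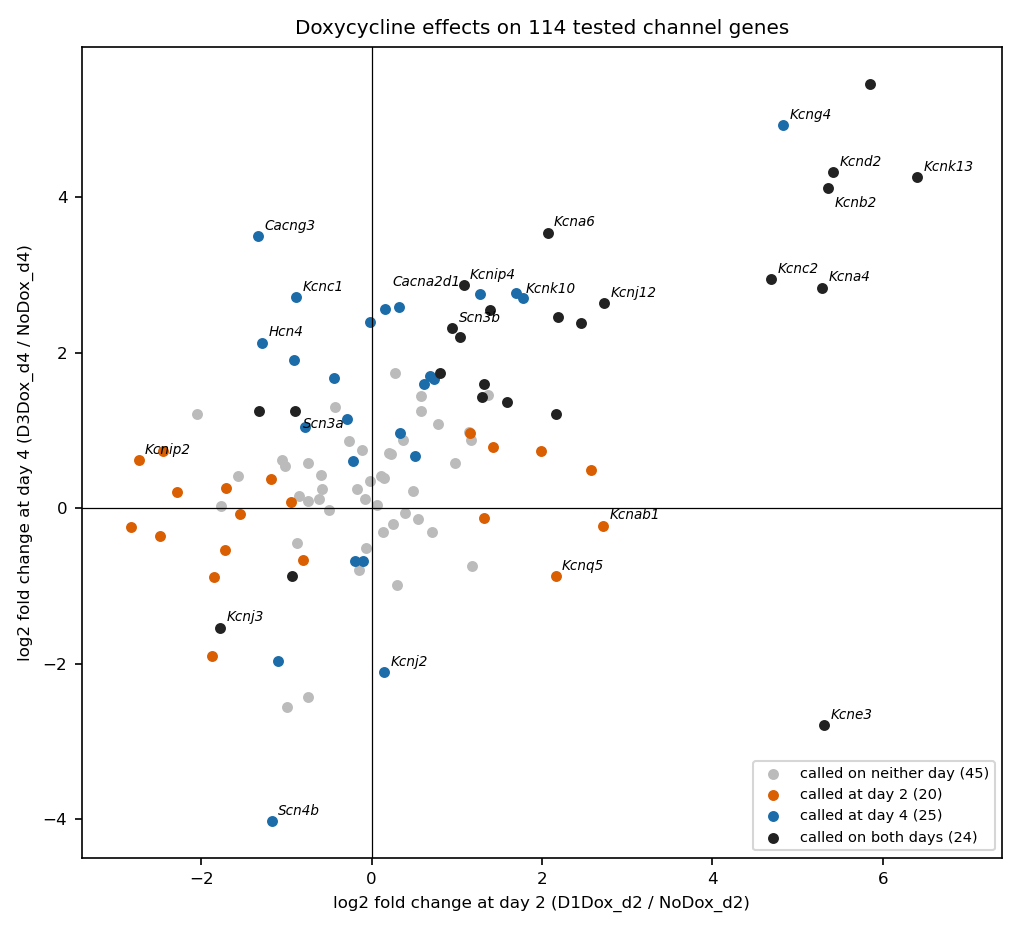
Log2 fold change with doxycycline at day 2 (x axis) and at day 4 (y axis) for the 114 tested channel genes, coloured by the day on which they were called. Kcnd2 and Kcnk13 lie at the upper right, Kcnj3 at the lower left, and Scn3a and Kcne3 in the quadrants of opposite signs. For Kcng4, with 0 counts in NoDox_d2, the position on the x axis depends on the prior count of the fit.

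Both effects can be set side by side for the same gene, although every gene has its own controls on each day. Of the 27 channel genes that rose at day 2, 19 also rose at day 4, which is 70.4% of the former and 46.3% of the 41 that rose at day 4. Over all tested genes 1042 rose on both days, which is 38.5% of the day 2 rises and 43.0% of the day 4 rises. Only Kcnj3 and Kcng1 fell on both days, 11.8% of the 17 falls at day 2 and 25% of the 8 at day 4. Over all tested genes 606 fell on both days, 24.9% of the day 2 falls and 33.0% of the day 4 falls, so the channel genes' shares were below these. Scn3a was among the genes called lower at day 2 and higher at day 4, and Kcne3 was called higher at day 2 and lower at day 4. There were 45 tested channel genes called on neither day.

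**Figure D4:**
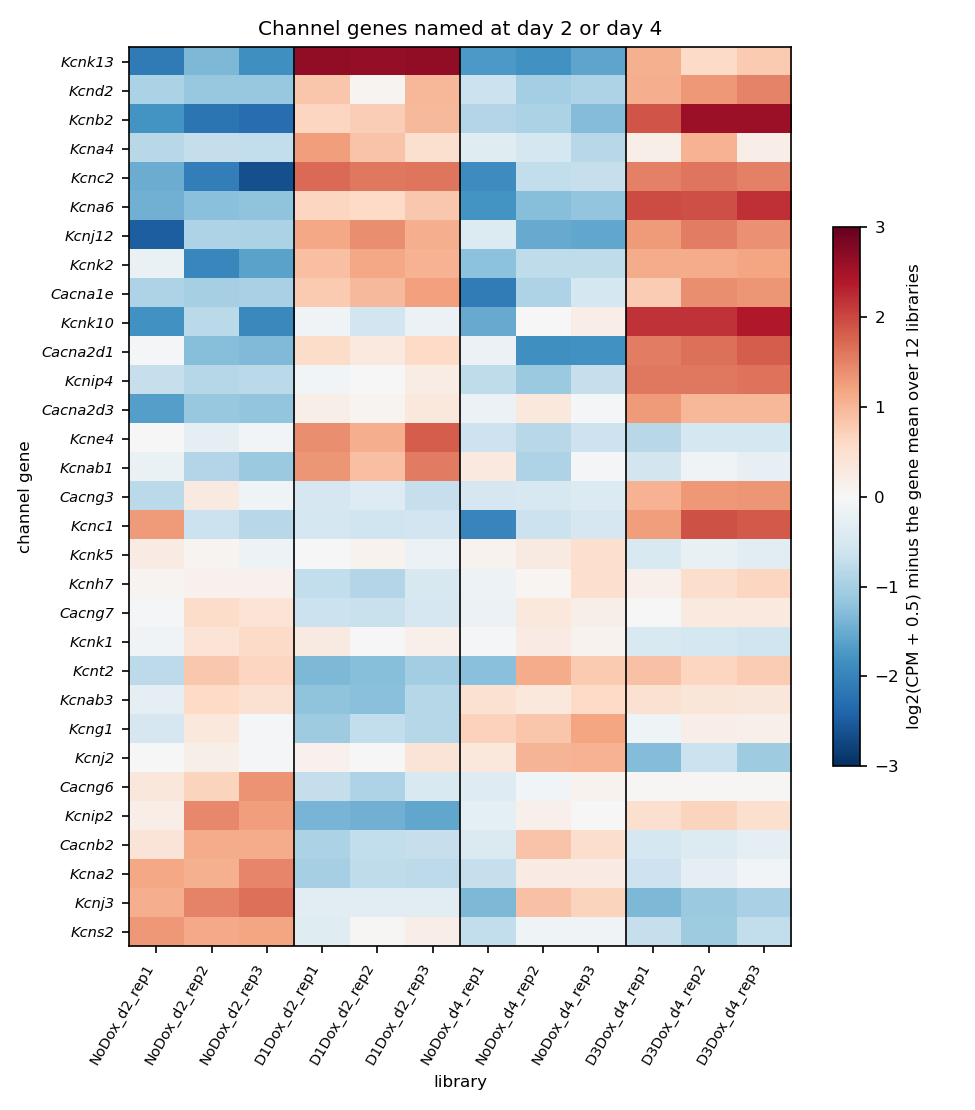
Level of channel genes named by rule at day 2 or day 4 in each of the 12 libraries, as log2(CPM + 0.5) minus the gene's mean over the libraries. Rows are ordered by the sum of both effects, and the genes at the top, such as Kcnk13 and Kcnb2, are above their mean in all 6 doxycycline libraries, whereas Kcnip2 is low in the D1Dox_d2 libraries and above its mean in the D3Dox_d4 libraries.

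Whether the effect differed between the days was tested as the day 4 effect minus the day 2 effect. The difference was called higher for 22 channel genes and lower for 4, 22.8% of those tested, where 12.9% of all tested genes were called. By direction, the difference was positive for 6.67% and negative for 6.26% of all tested genes. Its median was 0.47 over the tested channel genes and 0.00 over all tested genes. It was called for 53 channel genes (42 higher and 11 lower) without both NoDox libraries numbered 1, against 35.3% of all tested genes (19.0% higher and 16.3% lower). The count was 17 without D1Dox_d2 replicate 1 or 3, D3Dox_d4 replicate 3 or NoDox_d2 replicate 2, and 45 without NoDox_d2 replicate 1.

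Kcnip2 had the smallest adjusted p. Its effect was −2.73 ± 0.29 at day 2 and 0.62 ± 0.27 at day 4, a difference of 3.35 ± 0.40 (adjusted p = 0.000731). At day 4 its levels were 6.30, 8.57 and 7.56 CPM in NoDox_d4 and 11, 12.5 and 10.9 CPM in D3Dox_d4, so the libraries did not overlap although the gene was not called then (adjusted p = 0.126). It was called higher at day 4, at 0.51 (adjusted p = 0.00702), without both NoDox libraries numbered 1. The relative Kcnip4 rose on both days, and more at day 4, by a difference of 1.78 ± 0.31 (adjusted p = 0.00472). The same held for Kcna6, at 1.48 ± 0.23 (adjusted p = 0.00314). For Scn3a the difference was 2.15 ± 0.43 (adjusted p = 0.00959), between effects of opposite sign. Kcnj2 did not differ between D1Dox_d2 and NoDox_d2 beyond its spread, at 3.71, 3.37 and 4.59 CPM against 3.39, 3.87 and 3.27 CPM, and its difference of effects was −2.25 ± 0.40 (adjusted p = 0.00538). Kcne3 had the most negative difference, −8.11 ± 1.39 (adjusted p = 0.00432), at levels under 1 CPM in every library.

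Hcn4 also differed between the days. In D1Dox_d2 it had 1.70, 1.75 and 2.25 CPM, within the range of NoDox_d2 (1.62, 6.28 and 6.02 CPM), and the difference of effects was 3.42 ± 0.75 (adjusted p = 0.0142). For Kcnk13 the effects were 6.40 and 4.26, and the difference of −2.14 ± 0.87 was not called (adjusted p = 0.122).

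The comparison of NoDox_d4 with NoDox_d2 asked how channel genes changed with time without doxycycline. Of 114 tested 6 rose and 11 fell, 14.9% in all, where 10.6% of all tested genes were called (5.09% higher and 5.55% lower). The libraries did not overlap for 24 channel genes (21.1% of those tested), slightly below the 23.2% of all tested genes. The counts were 23 and 15 without both NoDox libraries numbered 1, against 25.1% of all tested genes (13.7% higher and 11.4% lower). With only the NoDox libraries in the fit 0 channel genes were called by edgeR's test (25 at an unadjusted p under 0.05), while DESeq2 with all libraries called 26. With the NoDox libraries alone and the replicate number as a block, 17 were called. The count also changed to 28 without NoDox_d4 replicate 1, and to 10, 11 and 10 without NoDox_d2 replicate 3, NoDox_d4 replicate 2 and NoDox_d4 replicate 3.

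Among the falls was Kcnd1, an A-type channel, from 8.57, 6.28 and 6.76 CPM in NoDox_d2 to 3.31, 2.44 and 3.15 CPM in NoDox_d4 (−1.28 ± 0.23, adjusted p = 0.00537). Kcnq3, an M-type channel of neurons, fell by 1.54 ± 0.28 (adjusted p = 0.00481). For both genes the days did not overlap. Kcnk3, an acid-inhibited leak channel, fell by 2.17 ± 0.37 (adjusted p = 0.00393; −2.80 without both NoDox libraries numbered 1), and Kcns2 by 2.46 ± 0.56 (adjusted p = 0.0165). Others were Kcna1, Kcna2, Kcnip2, Cacng6, Scn4a and Kcnj5, by 1.14 to 2.09 log2 units. Calls of these genes were often lost when 1 library was left out. That of Cacng6 was lost without any 1 library but NoDox_d2 replicate 1 (adjusted p of 0.0523 to 0.173). That of Kcnj5 was lost without any 1 doxycycline library, NoDox_d2 replicate 1 or NoDox_d4 replicate 2 or 3 (0.0608 to 0.155), and its change was −1.08 without NoDox_d2 replicate 1. The Kcna1 call was lost without any 1 NoDox_d2 library, NoDox_d4 replicate 1 or 2, D1Dox_d2 replicate 2 or 3 or D3Dox_d4 replicate 2 (0.0508 to 0.126). Without both NoDox libraries numbered 1, Kcna1 and Kcnj5 were not called (adjusted p = 0.0579 and 0.0755). The calls of Kcna2, Kcnip2 and Scn4a were lost without 1, 3 and 3 NoDox libraries in turn, namely NoDox_d2 replicate 3 for Kcna2, that library, NoDox_d2 replicate 2 and NoDox_d4 replicate 3 for Kcnip2, and NoDox_d2 replicate 1 and NoDox_d4 replicates 2 and 3 for Scn4a (0.0538 to 0.101).

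The rises were Cacna2d3, Kcnq5, Kcng1, Kcnb2, Cacng4 and Kcne3. Cacna2d3 went from 0.317, 0.671 and 0.632 CPM to 1.77, 2.68 and 2.00 CPM (1.99 ± 0.30, adjusted p = 0.00215). Kcng1 went from 4.62, 8.57 and 6.43 CPM to 11.2, 12.3 and 16 CPM (1.01 ± 0.24, adjusted p = 0.0200). Kcnb2 rose by 2.95 ± 0.63 (adjusted p = 0.0118) and by 4.73 without both NoDox libraries numbered 1. With the replicate block added to the fit of all libraries, the calls of Kcnq5, Kcne3 and Kcnj5 were lost. Without 1 library, the Kcnq5 call was lost for all but NoDox_d4 replicate 3 and D3Dox_d4 replicate 1, and that of Kcne3 for any D1Dox_d2 library, NoDox_d2 replicate 1 or 3 or NoDox_d4 replicate 3 (adjusted p of 0.0521 to 0.138). The Cacng4 call was lost without NoDox_d2 replicate 1 or 3 or NoDox_d4 replicate 2 or 3, and that of Kcng1 without NoDox_d2 replicate 3 or NoDox_d4 replicate 3 (0.0508 to 0.0878). With the NoDox libraries alone each of the 17 calls was lost, at adjusted p of 0.0699 to 0.230.

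Finally, D3Dox_d4 was compared with D1Dox_d2, groups that differ both in the day and in the digit after the D, so that these cannot be told apart. Of 114 tested channel genes 46 were higher in D3Dox_d4 and 21 lower, 58.8% in all, where 44.0% of all tested genes were called (22.6% higher and 21.4% lower). The median log2 fold change was 0.76 over the tested channel genes and 0.00 over all tested genes. The libraries did not overlap for 92 channel genes (80.7% of those tested), against 65.7% of all tested genes. In a fit without both NoDox libraries numbered 1, 62 were higher and 28 lower, against 62.0% of all tested genes (31.9% higher and 30.1% lower).

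The genes higher in D3Dox_d4 included Cacng2, with 0.492, 0.325 and 0.260 CPM in D1Dox_d2 and 6.90, 7.15 and 8.39 CPM in D3Dox_d4 (4.35 ± 0.61, adjusted p = 0.000274). Hcn4 was higher by 4.07 ± 0.57 (adjusted p = 0.000267) and Kcnj11, the pore of ATP-sensitive channels, by 3.0 ± 0.79 (adjusted p = 0.00999). Kcnn1, a small-conductance calcium-activated channel, was higher by 2.38 ± 0.35, Kcnh4 by 2.36 ± 0.49, Kcnc1 by 2.33 ± 0.55, Kcnk10 by 2.78 ± 0.55, Cacng3 by 3.78 ± 0.78 and Scn3a by 2.27 ± 0.31.

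Auxiliary and modulatory potassium channel subunits made up 8 of the 21 genes lower in D3Dox_d4, and 6 auxiliary and 2 modulatory genes were higher. Kcne4 went from 1.82, 1.38 and 2.64 CPM in D1Dox_d2 to 0, 0.111 and 0.119 CPM in D3Dox_d4 (−4.60 ± 0.66, adjusted p = 0.000302). Kcnmb1, the smooth muscle beta subunit of the large-conductance calcium-activated channel, went from 2.99, 2.52 and 2.73 CPM to 0.289, 0.111 and 0.398 CPM (−3.36 ± 0.60, adjusted p = 0.00115). Kcns3 was lower by a log2 fold change of −2.24 ± 0.36, Kcnab1 by −2.05 ± 0.51 and Kcnf1 by −2.05 ± 0.44. Kcnn4, an intermediate-conductance channel of blood and fibroblasts, and Kcnj5, the partner of Kcnj3, were lower at −2.64 ± 0.69 and −2.49 ± 0.56. Kcnk13 was lower at −1.97 ± 0.43 (adjusted p = 0.00385). Kcng3, Kcnj14 and Kcnc4 followed at −1.88, −1.74 and −1.72. All of these last 3 calls were lost without D3Dox_d4 replicate 1 or 3, at adjusted p of 0.0536 to 0.142. That of Kcng3 was also lost without any 1 D1Dox_d2 library, and that of Kcnj14 without any 1 D1Dox_d2 library, D3Dox_d4 replicate 2, NoDox_d2 replicate 2 or NoDox_d4 replicate 3 (0.0535 to 0.109). All 8 fibroblast and smooth muscle markers were lower in D3Dox_d4 than in D1Dox_d2, and 9 of 12 neuron markers were higher. Their part in the channel values was not tested.

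A list of 93 other genes of membrane excitability, such as transporters, pumps, chloride and transient receptor potential channels and partners of the channels above, gives the setting of these values. Of 79 tested, 19 rose and 8 fell at day 2, and 25 rose and 4 fell at day 4, beside 14.9% and 13.4% of all tested genes at day 2 and 13.4% and 10.2% at day 4. These counts were 36 and 19 at day 2 and 33 and 8 at day 4 without both NoDox libraries numbered 1. Atp1b1, a beta subunit of the sodium pump, rose by 2.90 ± 0.14 at day 2 and 2.09 ± 0.14 at day 4. Unc79 and Unc80, subunits of the sodium leak channel complex, rose by 0.97 ± 0.25 and 0.83 ± 0.27 at day 2 and by 2.26 ± 0.26 and 2.33 ± 0.28 at day 4. Ank3, the scaffold that holds sodium and Kcnq channels at the axon start, had 75.2 to 84.1 CPM in NoDox_d2 and 32.9 to 36.8 CPM in D1Dox_d2 (−1.21 ± 0.16, adjusted p = 0.000296). Lrrc55, an auxiliary subunit of the large-conductance calcium-activated channel, had 0.192 to 0.670 CPM in NoDox_d4 and 10.2 to 11.9 CPM in D3Dox_d4 (4.65 ± 0.44, adjusted p = 2.64e-05).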

How the data were processed

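Bulk RNA-seq was measured in 12 libraries, 4 groups of 3. The NEBNext Ultra II kit was used, with 150 bp paired reads kept at 50 bp or more after trimming, per the labels' protocols. The submitters' processing notes name mm10 and GRCm38 as builds and DESeq2, featureCounts and STAR as tools. Deposited values were whole-number counts per gene, made by the authors with featureCounts 2.0.1 without strand, per the file headers, so reads of overlapping genes on opposite strands cannot be told apart.

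From these counts, edgeR 4.0.16 in R 4.3.3 (limma 3.58.1) fitted 1 coefficient per group over all 12 libraries (8 residual degrees of freedom) after filterByExpr, which left 18109 genes and 114 of the 136 channel genes. The other 22 had 0 to 122 counts in all. Calls needed an adjusted p (Benjamini-Hochberg, over all tested genes) under 0.05 in edgeR's quasi-likelihood test, and all adjusted p in the text come from it unless DESeq2 is named. Values after ± are standard errors of the log2 fold change, taken as its size over the square root of F. CPM uses TMM-scaled totals, and RPKM divides CPM by counted exon length. Where a group held 3 counts or fewer, the ratio of counts is given with a 95% exact counting interval, which covers counting error only.

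Genes were named by rule: for each comparison the 12 highest and 12 lowest changes among called genes with at least 1 CPM in the higher group and no overlap, the leader of each subfamily by RPKM, genes called in opposite directions, and up to 6 called differences of effects. Other genes named were chosen after their values were seen. The channel genes and all lists were chosen with earlier results of these data known. Alternatives were DESeq2 size factors or upper-quartile scaling, no filter or at least 1 CPM in 3 libraries, DESeq2 1.42.0, a block for the replicate number, a fit of the compared groups alone, each library left out, and both NoDox libraries numbered 1 left out. A fit of the NoDox libraries alone with the block was added after seeing the data. Leaving out both NoDox libraries numbered 1 was chosen because they stood apart in these data. Both NoDox libraries numbered 1 deviated together (correlation 0.545). For numbers 2 and 3 the same-numbered NoDox pairs (0.361 and 0.308) were like the differently numbered pairs (0.416 and 0.325). Pairing by number is therefore not shown for them, and the block is given beside the time comparison only as an alternative. The fit was also run on simulated counts. These held no libraries that stood apart from their group, so that run does not cover this feature of the data. Promoter windows came from RefSeq (GRCm38.p6), matched by symbol. Some genes that the rules select are not reported here, though counts over the channel genes include them.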

Additional observations from a re-analysis of the deposited data

Results flagged for a closer look

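The effect of doxycycline differed between the days for 26 channel genes, by a test of the difference itself (edgeR's quasi-likelihood test of the day 4 effect minus the day 2 effect, adjusted p of 0.000731 to 0.048). Differences are on the log2 scale. Among potassium channel pore genes whose values are given here, the difference was 3.60 for Kcnc1, 3.18 for Kcnq1, 2.82 for Kcnk3, 2.41 for Kcnh4, 2.12 for Kcna2, 1.82 for Kcnn1, 1.55 for Kcnh7, 1.48 for Kcna6 and 1.17 for Kcnd3. Among auxiliary potassium channel genes it was 3.35 for Kcnip2, 1.78 for Kcnip4, 1.47 for Kcnab3 and 0.82 for Kcnip3. For the pacemaker, sodium and calcium channel genes it was 4.84 for Cacng3, 3.42 for Hcn4, 2.5 for Cacng6, 2.15 for Scn3a, 1.43 for Hcn3, 1.37 for Scn3b and 1.02 for Cacng7. It was negative for 4 genes, at −2.25 for Kcnj2, −2.94 for Kcnab1, −3.04 for Kcnq5 and −8.11 for Kcne3. Without both NoDox libraries numbered 1 the value was 2.16 for Kcnc1, 3.45 for Kcnk3 and 0.77 for Scn3b. The levels of Cacng3, Kcnq1 and Kcne3 were under 2 CPM in every library. Of the 26 calls 10 were lost when 1 library was left out. Among them, Scn3b lost its call for any of 10 of the 12 libraries, all but NoDox_d4 replicates 1 and 2, and also with the replicate block and with upper-quartile scaling. Those of Hcn3 and Kcnip3 were lost for 9 libraries each, that of Kcnh4 for 8, and those of Kcnd3, Kcnh7 and Kcnn1 for 7 each. The Kcnab1 call was lost for 6 libraries and that of Cacng3 for D1Dox_d2 replicate 3 and NoDox_d2 replicate 2. Adjusted p in these fits were 0.0506 to 0.112 where the call was lost. With no filter the calls of Kcnh7 and Kcnip3 were lost too.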

How the results depend on the processing

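Without both NoDox libraries numbered 1 the number of channel genes called was 77 at day 2, 53 for the difference of effects and 38 for the time comparison. The time comparison depended most on the processing: DESeq2 called 26, and a fit of the NoDox libraries alone called 0 by edgeR's test (25 at an unadjusted p under 0.05), where fewer libraries estimate the spread. Leaving out 1 library of the compared groups in turn (any of the 12 for the difference) gave 32 to 61 channel genes at day 2, 39 to 50 at day 4, 17 to 45 for the difference of effects, 10 to 28 for time and 53 to 60 for D3Dox_d4 against D1Dox_d2. The cause of these shifts was not tested. With the replicate block 46 were called at day 2, 49 at day 4, 27 for the difference, 15 for time and 68 between the doxycycline groups. These were not all the same genes. The block kept 41 of the 44 calls at day 2, 47 of 49 at day 4 and 25 of 26 for the difference. It kept 14 of 17 for time and 65 of 67 between the doxycycline groups. Doxycycline and NoDox libraries of the same number did not deviate together. No called channel gene changed sign under the alternatives run. Of the 44 genes called at day 2, 27 kept the call whichever 1 library was left out, as did 37 of 49 at day 4, 16 of 26 for the difference, 7 of 17 for time and 49 of 67 between the doxycycline groups. At least 1 of the other alternatives ended 3 calls at day 2, 8 at day 4 and 3 for the difference. It ended 17 for time and 4 between the doxycycline groups. The 8 at day 4 were Cacnb3, Kcne3, Kcnh3, Kcnj3, Kcnk1, Kcnn1, Kcnu1 and Scn4b. Without both NoDox libraries numbered 1, the call was kept by 44 of 44 at day 2 and 48 of 49 at day 4. For the difference it was kept by 26 of 26, for time by 13 of 17 and between the doxycycline groups by 67 of 67. That fit leaves out libraries because they stood apart, and it called more of all tested genes (53.4% against 28.4% at day 2). Calls kept in it are therefore no independent check. At this depth 3 counts correspond to 0.106 to 0.130 CPM, and a difference between groups that both lie at or under that level was not detectable.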
